A study of Mus musculus with 6 samples.

Results

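The genes described here are 10 imprinted transcripts of the mouse retina, taken by gene symbol from a table of 30042 genes. Plagl1, H19, Igf2, Nnat, Peg3, Grb10 and Ndn lie outside the Dlk1-Dio3 domain, the imprinted cluster that ends with the gene of the type 3 deiodinase. Meg3, Rian and Begain belong to that cluster or to its edge. The series profiled messenger RNA of whole retina from wild-type mice of mixed strain (129/Sv; C57/BL6J). There was 1 library for each age: E16.5, an embryonic age, then P1, P3, P7, P14 and P28, which count days after birth. Where 6 values stand together below, they follow that order of ages. All libraries share the wild-type genotype, and neither sex nor how many retinas were pooled is in the labels. The series title concerns mice without deiodinases, which are not analysed here.

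An imprinted gene is transcribed mainly from the copy inherited from 1 parent, and which copy is set by DNA methylation laid down in egg or sperm. Many imprinted genes act on growth: those expressed from the father's copy, such as Igf2, tend to promote it, and those expressed from the mother's copy, such as H19 and Grb10, tend to restrain it. In mice, imprinted genes are also abundant in the developing nervous system, where several of them affect cell division, survival and differentiation. The table gives 1 value per gene and library and does not separate the parental copies, so it says nothing of imprinting itself. Values are RPKM, read counts scaled to gene length and to library size, as the authors deposited them.

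Promoter windows of RefSeq (GRCm38.p6, 300 bases around an annotated start site) matched 9 of the 10 genes. H19 had no entry. Plagl1, Nnat, Ndn, Peg3 and Rian had 1 window each, Meg3 and Grb10 had 2, Igf2 had 4 and Begain 5. The table has 1 value per gene and does not separate the starts of a gene. The windows are shown for 3 genes that fell with age and for Peg3 and Meg3, which did not fall. In the first pair, capitals mark CpG dinucleotides, the bases at which DNA methylation mainly occurs. Methylation was not measured, so the capitals do not show where an imprint lies. The Plagl1 window (chr10:13090582-13090881, plus strand) holds 26 of them and the first Grb10 window (chr11:12037371-12037670, minus strand) holds 45, against a median of 7 over 32851 windows. The 5 windows of Begain, which did not fall, hold 34 to 46, and the second Grb10 window holds 9 and that of Ndn 11.
Plagl1: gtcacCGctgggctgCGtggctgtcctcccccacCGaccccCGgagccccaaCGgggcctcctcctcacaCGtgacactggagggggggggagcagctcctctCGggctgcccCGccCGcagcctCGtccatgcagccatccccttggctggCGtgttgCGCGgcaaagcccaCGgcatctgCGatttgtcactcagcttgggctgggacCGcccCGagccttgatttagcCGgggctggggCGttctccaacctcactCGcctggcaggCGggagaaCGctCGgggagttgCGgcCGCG
Grb10: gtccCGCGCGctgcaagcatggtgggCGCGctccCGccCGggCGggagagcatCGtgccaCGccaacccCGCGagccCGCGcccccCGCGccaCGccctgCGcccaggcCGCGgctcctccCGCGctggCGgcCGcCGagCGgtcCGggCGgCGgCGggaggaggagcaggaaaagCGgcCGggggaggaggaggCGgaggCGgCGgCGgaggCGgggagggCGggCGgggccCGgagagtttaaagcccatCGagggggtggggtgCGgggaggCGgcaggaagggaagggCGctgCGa
In the other windows capitals mark matches, on either strand, to 4 motifs: GGGGCCCC, bound by the Plagl1 protein, CCATNTT of YY1, TGACG of CREB and TATAAA of the TATA box. These are the windows of Nnat (chr2:157559828-157560127, plus strand), Peg3 (chr7:6730370-6730669, minus strand) and the first of Meg3 (chr12:109540746-109541045, plus strand).
Nnat: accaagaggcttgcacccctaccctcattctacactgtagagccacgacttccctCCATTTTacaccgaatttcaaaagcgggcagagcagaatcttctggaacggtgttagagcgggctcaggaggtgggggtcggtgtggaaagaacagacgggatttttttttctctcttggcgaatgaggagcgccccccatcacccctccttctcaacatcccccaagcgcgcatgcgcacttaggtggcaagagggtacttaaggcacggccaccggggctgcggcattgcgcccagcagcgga
Peg3: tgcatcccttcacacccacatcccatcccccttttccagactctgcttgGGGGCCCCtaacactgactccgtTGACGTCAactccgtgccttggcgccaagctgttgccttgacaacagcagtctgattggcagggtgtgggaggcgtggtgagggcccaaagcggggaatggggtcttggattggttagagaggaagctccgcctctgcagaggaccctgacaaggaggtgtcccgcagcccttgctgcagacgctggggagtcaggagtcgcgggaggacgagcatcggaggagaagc
Meg3: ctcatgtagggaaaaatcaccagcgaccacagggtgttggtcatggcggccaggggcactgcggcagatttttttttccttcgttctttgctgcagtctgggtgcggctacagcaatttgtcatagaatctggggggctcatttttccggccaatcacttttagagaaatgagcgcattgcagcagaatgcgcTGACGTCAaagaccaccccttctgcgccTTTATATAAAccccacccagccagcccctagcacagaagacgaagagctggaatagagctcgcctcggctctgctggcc
Nnat held 1 match to the YY1 motif, which 16.1% of all windows hold. In both Peg3 and Meg3, 2 overlapping TGACG matches on opposite strands form the palindrome TGACGTCA, a longer form of the CREB motif that was singled out after the matches were seen. It occurs in 1.79% of all windows, and TGACG alone in 20.8%. The Meg3 window also holds 2 overlapping TATAAA matches (13.6% of all windows hold 1 or more). GGGGCCCC occurred in the Peg3 window, in 1 of the 5 Begain windows and in 1.08% of all windows. The Peg3 window shares 263 bases with that of Usp29, which is transcribed the other way. The matches describe letters in these windows and were not tested for binding.

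Over the 6 ages, 6 of the 10 genes fell, 0 rose and 4 did not pass the test. The test was a straight line of log2(RPKM + 1) over age order, fitted with limma to the 15272 genes that reached 1 RPKM at some age, with Benjamini-Hochberg adjustment over all of them. A slope is given in log2 units per age step, with its standard error (SE). With 1 library per age, the spread is that of different ages around a line, not that of replicate retinas, so no pair of ages was tested. Of all tested genes 29.9% fell and 15.2% rose, which were 4571 and 2326 genes. That split moved with the scaling of the libraries, to 3396 that fell and 3110 that rose under median-of-ratios rescaling and to 2668 and 3293 under a common total without the 50 highest genes. Without P14, 2953 fell and 1538 rose. The median slope was -0.23 over the 10 genes and -0.06 over all tested genes. Plagl1, H19, Nnat and Grb10 fell under each of the 14 alternative settings and left-out libraries, while the calls for Igf2 and Ndn depended on the setting. In whole retina, fewer cells of a type and less RNA per cell cannot be told apart.

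**Figure D1:**
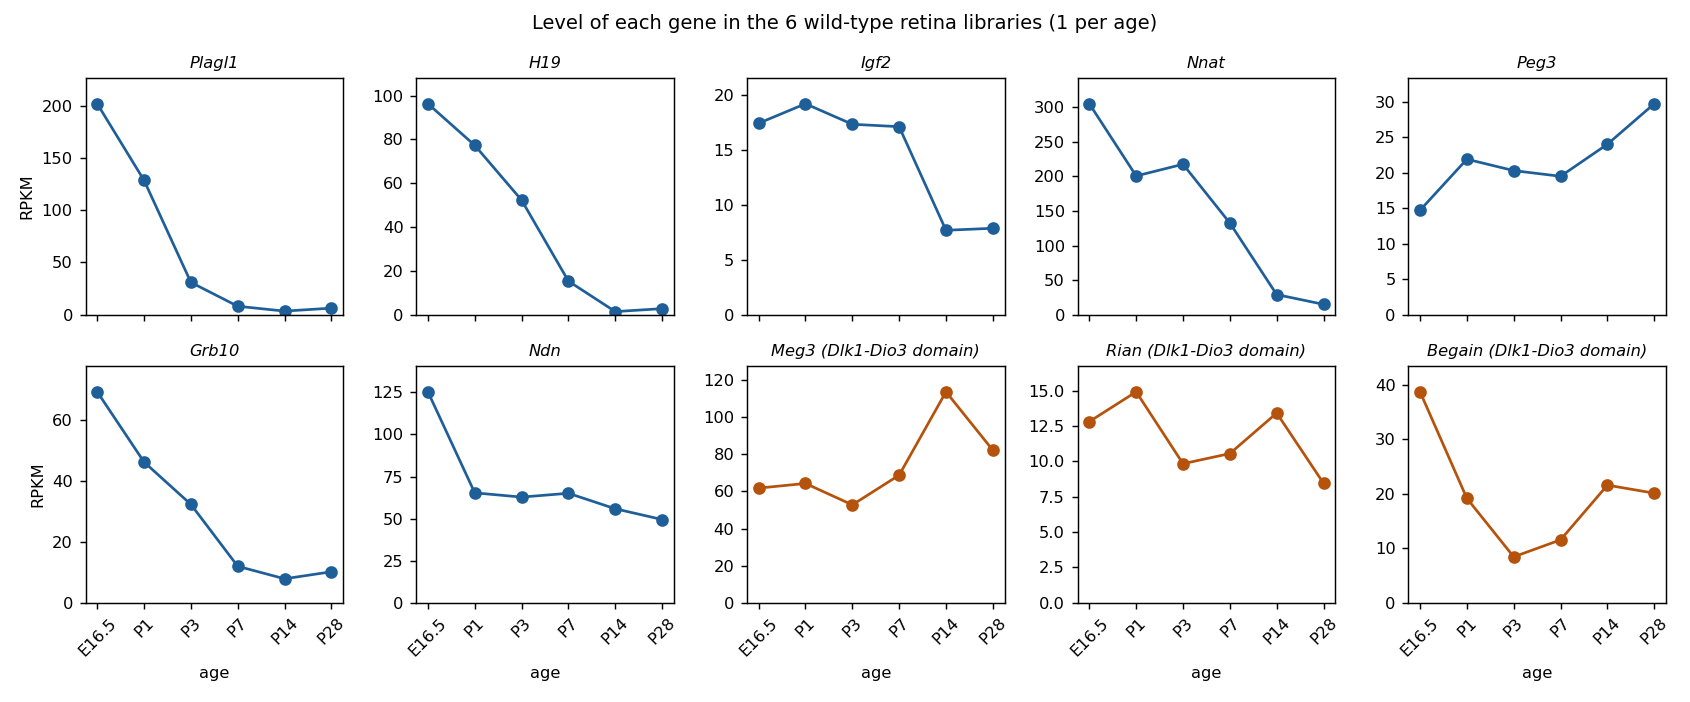
Level of each gene (RPKM, vertical axis from 0) at each age, 1 point per library, with genes outside the Dlk1-Dio3 domain in blue and Meg3, Rian and Begain in brown. Plagl1 and H19 were highest at E16.5 (202 and 96.3 RPKM) and lowest at P14 (3.45 and 1.42), whereas Meg3 was highest at P14 (114).

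Plagl1 encodes a zinc finger transcription factor, also called Zac1, that can halt the cell cycle and acts on other imprinted genes. Its 6 values were 202, 129, 31.0, 8.10, 3.45 and 6.30 RPKM, high at E16.5 and P1 and low from P7 on. The E16.5 value was 58.6 times the P14 value. Its slope was -1.15 ± 0.16 (SE, adjusted p = 0.00213), the 12th lowest of all tested genes. At E16.5 its level was above 99.6% of tested genes, and at P14 it was at percentile 45.5. The steps from P1 to P3, P3 to P7 and P7 to P14 each lowered it by at least 1 log2 unit, the size used here to call a difference between 2 ages.

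H19 is a long noncoding RNA made from the maternal chromosome, next to Igf2, and it carries the precursor of a microRNA. By age its values were 96.3, 77.3, 52.3, 15.3, 1.42 and 2.77 RPKM. At P3 it still held 54.3% of its E16.5 level, where Plagl1 held 15.3%. The slope was -1.15 ± 0.16 (adjusted p = 0.00222), the 14th lowest, and the P14 value was 1.47% of the E16.5 value. From the longest reference transcript, the P14 value corresponds to an estimated 93 reads and the P28 value to 81. The upper bound of the 95% counting interval was 1.73 RPKM at P14, below the lower bound of 2.19 RPKM at P28, but these bounds cover counting error only.

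Igf2 encodes insulin-like growth factor 2, a fetal growth factor. The 4 ages up to P7 gave 17.5, 19.2, 17.4 and 17.2 RPKM, and P14 and P28 gave 7.70 and 7.88. The counting intervals of the first 4 ages spanned 16.4 to 20.4 RPKM, and the highest bound of both later ages was 8.63. Here too the intervals cover counting error only, and they are no test between ages. The slope was -0.26 ± 0.07 (adjusted p = 0.0227). It was not called without P1 (adjusted p = 0.0637), P14 (0.0712) or P28 (0.109), or with a common total without the 50 highest genes (0.108). H19 was lower at each age up to P14 than at the age before, though its steps to P1 and P3 were within 1 log2 unit. Igf2 changed little up to P7. When each gene began to fall was not tested. The ratio of H19 to Igf2 took the values 5.51, 4.02, 3.01, 0.893, 0.184 and 0.351. Both are levels per length in 1 library, so library size cancels out of the ratio.

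Grb10 encodes an adaptor that binds the insulin and IGF1 receptors and dampens their signalling. The 6 libraries held 69.4, 46.3, 32.3, 12.0, 7.88 and 10.2 RPKM. Each age up to P14 was below the one before, and the step from P3 to P7 passed 1 log2 unit. The slope was -0.62 ± 0.09 (adjusted p = 0.00228). In mice Grb10 is expressed from the maternal copy in most tissues and from the paternal copy in neurons, through different start sites, and 1 value per gene does not show which start was used.

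The wider IGF axis held 18 listed genes of ligands, receptors, binding proteins and RNA-binding proteins. Among its 14 tested genes there were 7 that fell, 0 that rose and 7 without a call, and the median slope was -0.23. Over all tested genes 29.9% fell and 15.2% rose, with a median slope of -0.06. The RNA-binding proteins Igf2bp1 and Igf2bp2, which bind Igf2 messenger RNA, had the steepest slopes of this list (-0.77 ± 0.11, adjusted p = 0.00240, and -0.60 ± 0.09, adjusted p = 0.00260). Igf2bp1 took the values 11.8, 6.47, 4.31, 0.320, 0.0444 and 0.278 RPKM. The binding proteins Igfbp2 and Igfbp4 also fell: Igfbp2 had 58.1 RPKM at E16.5 and 4.36 at P14, Igfbp4 had 22.2 and 3.41. Igfbp2 was not called without E16.5 (adjusted p = 0.0509). Igf2r, the receptor that clears IGF2 and is itself imprinted, fell with a slope of -0.22 ± 0.04 (adjusted p = 0.00664), with 6.99 RPKM at the first age and 2.85 at the last. The signalling receptor Igf1r did not pass the test, with 23.7 RPKM at E16.5 and 18.4 at P28.

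Nnat encodes neuronatin, a small membrane protein of the endoplasmic reticulum in developing neurons, expressed from the paternal copy. It was the highest of the 10 genes at E16.5, P1, P3 and P7, at 305, 201, 218 and 133 RPKM, and then dropped to 29.1 at P14 and 15.0 at P28. The slope was -0.86 ± 0.13 (adjusted p = 0.00291). The P7 to P14 step was -2.15 log2 units, and from P14 to P28, when Plagl1, H19 and Grb10 were higher at the later age, Nnat was lower by 0.92 log2 units. Nnat sits within Blcap, a gene that is itself imprinted in brain, and reads of overlapping genes cannot be told apart since no source used here gives the strand of counting. Blcap itself had 26.9 RPKM at the first age and 15.1 at the last (slope -0.14 ± 0.05, adjusted p = 0.0364), a call lost under both rescalings (0.131 and 0.377) and without any 1 library (0.0523 to 0.178). The ratio of Nnat to Blcap took the values 11.3, 8.57, 10.2, 5.95, 1.63 and 0.989.

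Ndn encodes necdin, a protein of the MAGE family expressed in postmitotic neurons from the paternal copy. It stood at 125 RPKM at E16.5 and then between 49.4 and 65.3 at all later ages, namely 65.3, 62.8, 65.0, 55.8 and 49.4 RPKM. The E16.5 library alone was high, and the 5 later values were close to each other. The slope was -0.21 ± 0.07 (adjusted p = 0.0456), and without E16.5 it was -0.10 (adjusted p = 0.296). The call was also lost without P3 (0.0553), P7 (0.0687), P14 (0.103) or P28 (0.105), under both rescalings (0.140 and 0.197), without the filter on low values (0.0800), with log2 days as the age scale (0.0803) and with the title term (0.0573).

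Peg3 encodes a large zinc finger protein expressed from the paternal copy, which acts in cell death and in the brain. In age order it had 14.7, 21.9, 20.3, 19.5, 24.0 and 29.7 RPKM. It was lowest at E16.5 and highest at P28, with a slope of 0.15 ± 0.05 that did not pass (adjusted p = 0.0543). It did pass under both rescalings (0.0214 and 0.0143), without P1 (0.0367), without the intensity trend (0.0465) and once the 2 ways of writing the library titles entered the model (0.0388). Usp29, which starts in the same promoter region and runs the other way, ranged between 2.33 RPKM (E16.5) and 3.73 (P14) and did not pass either (slope 0.08 ± 0.04, adjusted p = 0.141). The ratio of Peg3 to Usp29 stayed between 6.08 and 9.45.

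**Figure D2:**
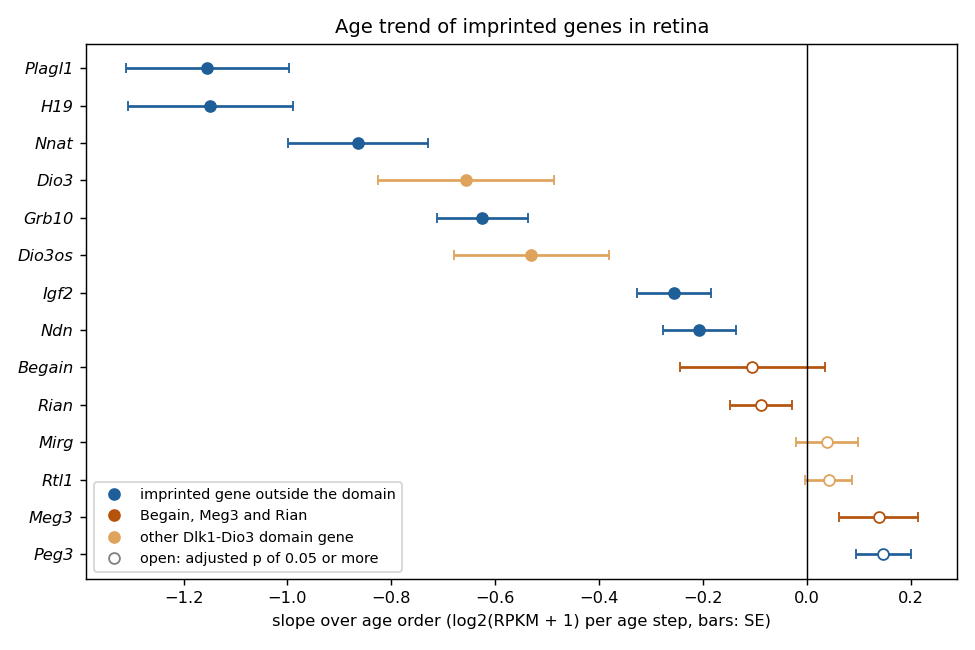
Slope of log2(RPKM + 1) per age step with its SE (bars) for the 10 genes and 4 other Dlk1-Dio3 domain genes, with open circles where the adjusted p was 0.05 or more. Plagl1 and H19 had the lowest slopes (both -1.15), and Begain, Rian, Mirg, Rtl1, Meg3 and Peg3 did not pass.

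Meg3 is the maternally expressed long noncoding RNA of the Dlk1-Dio3 domain. Its levels were 61.8, 64.3, 52.8, 68.8, 114 and 82.3 RPKM. The 4 earlier ages lay close together, and both later ages were above them. The slope was 0.14 ± 0.08 and did not pass (adjusted p = 0.166), except with a common total without the 50 highest genes, where it was 0.23 (0.0423). At P14 and P28 it was the highest of the 10 genes, above 99.5% and 99.1% of tested genes.

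Rian is a maternally expressed RNA downstream of Meg3 that carries small nucleolar RNAs and microRNAs. It had 12.8, 14.9, 9.84, 10.6, 13.4 and 8.46 RPKM in the 6 libraries. The values went up and down over a 1.77-fold range, the smallest of the 10 genes, with a slope of -0.09 ± 0.06 (adjusted p = 0.259). Meg3 and Rian are thought to come from 1 long transcription unit, and the ratio of Rian to Meg3 was 0.207, 0.232, 0.186, 0.153, 0.118 and 0.103 by age, highest at P1 and lower at each age after it. The change of this ratio was not tested.

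Begain encodes a scaffold protein that binds PSD-95 at synapses, and its gene lies upstream of Dlk1. The 6 ages gave 38.7, 19.2, 8.43, 11.6, 21.6 and 20.1 RPKM. It was thus lowest at P3 and higher on both sides. A line does not describe this course: the slope was -0.10 ± 0.14 (adjusted p = 0.566) and changed sign without E16.5 (0.14, adjusted p = 0.447). The curvature of Begain, the quadratic term of the same model, was 1.33 ± 0.35 with an unadjusted p of 0.00742 and an adjusted p of 0.168. No tested gene was called for curvature by limma (0%). An unadjusted p under 0.05 was found for 2858 of the 15272 tested genes. It was found for 2 of the 10 genes, Begain and Nnat, which is a similar share, so it does not set them apart. The 6 ganglion cell markers, led by Sncg, summed to 559, 237, 117, 144, 191 and 160 RPKM, also lowest at P3. Of these 6 markers 4 fell, against 29.9% of all tested genes. Sncg, Nefl and Isl1 were lowest at P3, whereas Pou4f1 and Rbpms were lowest at P28 and Pou4f2 at P14. Sncg was not called without E16.5 (adjusted p = 0.183), without P1 (0.0641) or in log2 days (0.0757). Their part in the course of Begain was not tested.

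The other genes of the domain did not share 1 course. Mirg, a microRNA host RNA downstream of Rian, lay between 1.21 RPKM (P3) and 2.51 (P14) (slope 0.04 ± 0.06, adjusted p = 0.618), and like Meg3 it was highest at P14. The retrotransposon-derived gene Rtl1 stood between 0.815 RPKM (P1) and 1.36 (P14) (slope 0.04 ± 0.05, adjusted p = 0.473). It too was highest at P14, and its annotated body overlaps Meg3 and Rian. Dlk1, which encodes a transmembrane protein related to Notch ligands, was under 1 RPKM at every age and was not tested. It had 0.465, 0.357, 0.400, 0.423, 0.0412 and 0.108 RPKM, and each of the last 2 values rests on an estimated 6 reads. Dio3 and its antisense neighbour Dio3os both fell. Dio3os had 14.7, 5.95, 1.84, 0.735, 0.760 and 2.01 RPKM (slope -0.53 ± 0.15, adjusted p = 0.0229). Dio3os was not called without E16.5 (adjusted p = 0.192), P1 (0.0677) or P14 (0.0663), and Dio3 (slope -0.66 ± 0.17, adjusted p = 0.0166) was not called without E16.5 (0.136). With log2 days as the age scale neither was called (0.0984 for Dio3os and 0.0744 for Dio3). Of 7 neighbouring genes outside the imprinted interval, 1 rose (the mitochondrial carrier Slc25a29, 0.769 and 4.28 RPKM at the first and last age), 3 fell (Evl, Degs2 and Yy1) and 3 did not pass. Over all tested genes 15.2% rose and 29.9% fell. Evl, an actin regulator, fell from 34.2 to 7.29 RPKM and Degs2, a sphingolipid enzyme, from 13.3 to 5.26. The transcription factor Yy1 went from 30.5 to 13.5 RPKM, a call that was lost under both rescalings (adjusted p 0.0996 and 0.219) and without E16.5 (0.203), P3 (0.0554), P7 (0.0536), P14 (0.107) or P28 (0.113).

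**Figure D3:**
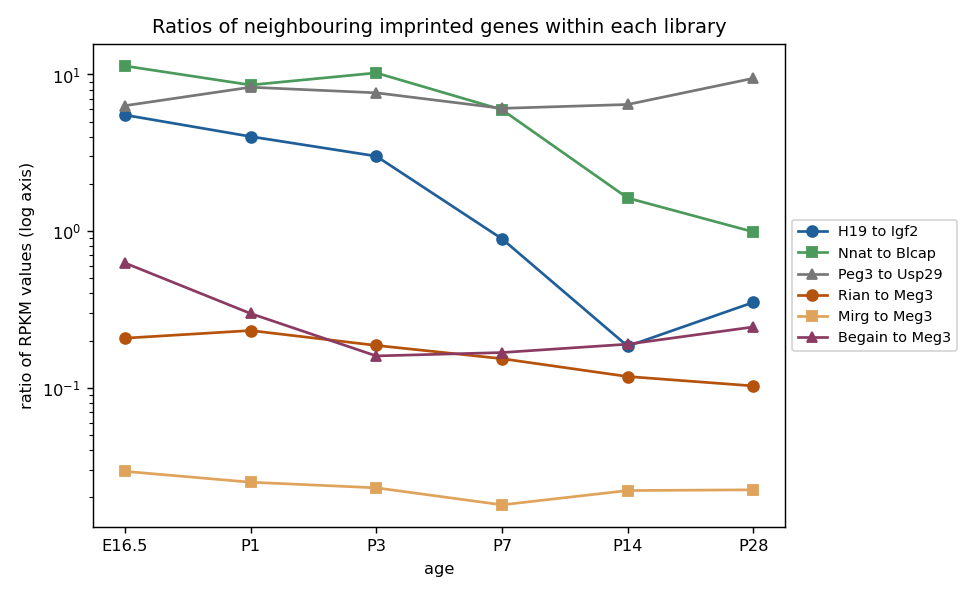
Ratio of RPKM values within each library (log axis) for 6 pairs of imprinted genes from shared chromosomal regions, 1 point per age. H19 to Igf2 went from 5.51 to 0.184 between E16.5 and P14, Rian to Meg3 was 0.207 at E16.5 and 0.103 at P28, and Peg3 to Usp29 stayed between 6.08 and 9.45.

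The steps between successive ages differed among the 10 genes. From E16.5 to P1, 0 were higher or lower by at least 1 log2 unit (1.05% of tested genes were higher and 2.23% lower), although Begain (-0.98) and Ndn (-0.93) came close. Begain passed with a pseudocount of 0.1. From P1 to P3, Plagl1 and Begain were lower, 2 of 10 against 3.52% of tested genes, and 0 were higher (1.94%). From P3 to P7, Plagl1, H19 and Grb10 were lower, 3 of 10 against 3.54%, and 0 were higher (2.36%). From P7 to P14, H19, Nnat, Igf2 and Plagl1 were lower, 4 of 10 against 2.4%, and 0 were higher (2.92%). From P14 to P28, 0 of the 10 passed in either direction (1.19% of tested genes were higher and 0.53% lower). At E16.5 the 10 genes were at percentiles 79.6 to 99.8 of tested genes, so these shares come from genes that were mostly lower. The 10 genes were also chosen with earlier results of these data known. Differences between 2 libraries have no replicate check, and with median-of-ratios rescaling only H19 and Nnat (2 of the 10) were lower from P7 to P14 and Begain was higher. The steps from P1 to P3 and from P14 to P28 also cross between the 2 ways of writing the library titles. In those steps age and title form cannot be told apart.

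Among the 10 genes, Plagl1 and Grb10 had the most similar profiles (Pearson r = 0.99 of log2(RPKM + 1)), and Plagl1 with H19 had r = 0.93. Igf2 was closest to Nnat (0.96). Peg3 ran opposite to Ndn (-0.92), and Meg3 opposite to H19 (-0.88) and Igf2 (-0.86). Meg3 was unlike Rian (0.13). All values share the same 6 libraries and the same age order, so these correlations are descriptions of 6 points. Of all other tested genes, those whose centred profile lay nearest to Plagl1 were Foxn4, the unnamed locus LOC100503416 and Gli1, a Hedgehog effector. The neurogenic factor Hes6 lay nearest to H19, at a distance of 0.56 log2 units, with Sox11 and Cd24a next. Igf2bp2 lay nearest to Grb10 (0.23), followed by Tox2 and the Wnt receptor Fzd5. Nearest to Nnat were Btbd17, Marcksl1 and Sox4. For Igf2 they were Phtf2, 4832406H04Rik and Phf16. For Ndn they were Zdhhc8, Lxn and Cdh22, and for Peg3 Ctbs, C030034I22Rik and Nrip2. Meg3 had Xrcc6, Tmem90a and Zmat4, Rian had Pcdh17, Abat and Rgs4, and Begain had Hpcal1, Tceal5 and Ccnd3.

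Imprinted genes elsewhere in the genome moved in both directions. Of 40 listed genes 30 were tested, with 12 that fell, 8 that rose and 10 without a call, at a median slope of -0.07, against 29.9% that fell and 15.2% that rose over all tested genes. With a common total without the 50 highest genes 7 fell and 10 rose, without P14 7 fell and 6 rose, and without P28 6 fell and 6 rose. No gene of this list was called with the other sign under any setting run. The steepest that fell were Peg12 and the cyclin-dependent kinase inhibitor Cdkn1c. Peg12 had 15.5, 7.96, 6.11, 1.78, 0.276 and 0.443 RPKM (slope -0.78 ± 0.08, adjusted p = 0.00149). Cdkn1c had 95.4, 27.4, 14.3, 17.7, 11.4 and 6.42 RPKM (-0.62 ± 0.11, adjusted p = 0.00386). Magel2, a relative of Ndn from the same cluster, fell from 5.67 to 0.234 RPKM, unlike the shallow course of Ndn, a difference between the 2 genes that was not tested. The retrotransposon-derived Peg10 and its neighbour Sgce fell from 9.81 to 1.81 and from 3.59 to 1.02 RPKM. Zdbf2 fell from 5.80 to 1.53, and it was not called without P28 (adjusted p = 0.0773).

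The steepest that rose were Nap1l5, a paternally expressed gene related to nucleosome assembly proteins, and Rasgrf1, a Ras activator of neurons. Nap1l5 had 6.61, 9.49, 7.96, 13.1, 53.2 and 73.7 RPKM (slope 0.69 ± 0.12, adjusted p = 0.00372). Rasgrf1 had 0.0463, 0.147, 0.344, 1.09, 5.60 and 7.63 RPKM (0.67 ± 0.09, adjusted p = 0.00232). The potassium channel Kcnk9 rose, with 0.172 RPKM at E16.5, 7.07 at P14 and 3.03 at P28, and it was not called without E16.5 (adjusted p = 0.0566). Impact, a regulator of protein synthesis, rose from 7.28 to 22.6 RPKM, and it was not called without P28 (0.0575). Airn, the RNA antisense to Igf2r, rose from 0.262 to 2.30 RPKM while Igf2r fell, and the reads of this pair cannot be separated without strand. Zrsr1, a splicing factor gene within Commd1, rose from 4.56 to 11.1 RPKM and was not called without P1 (0.0879), P14 (0.105) or P28 (0.228), nor without the filter on low values (0.0642).

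**Figure D4:**
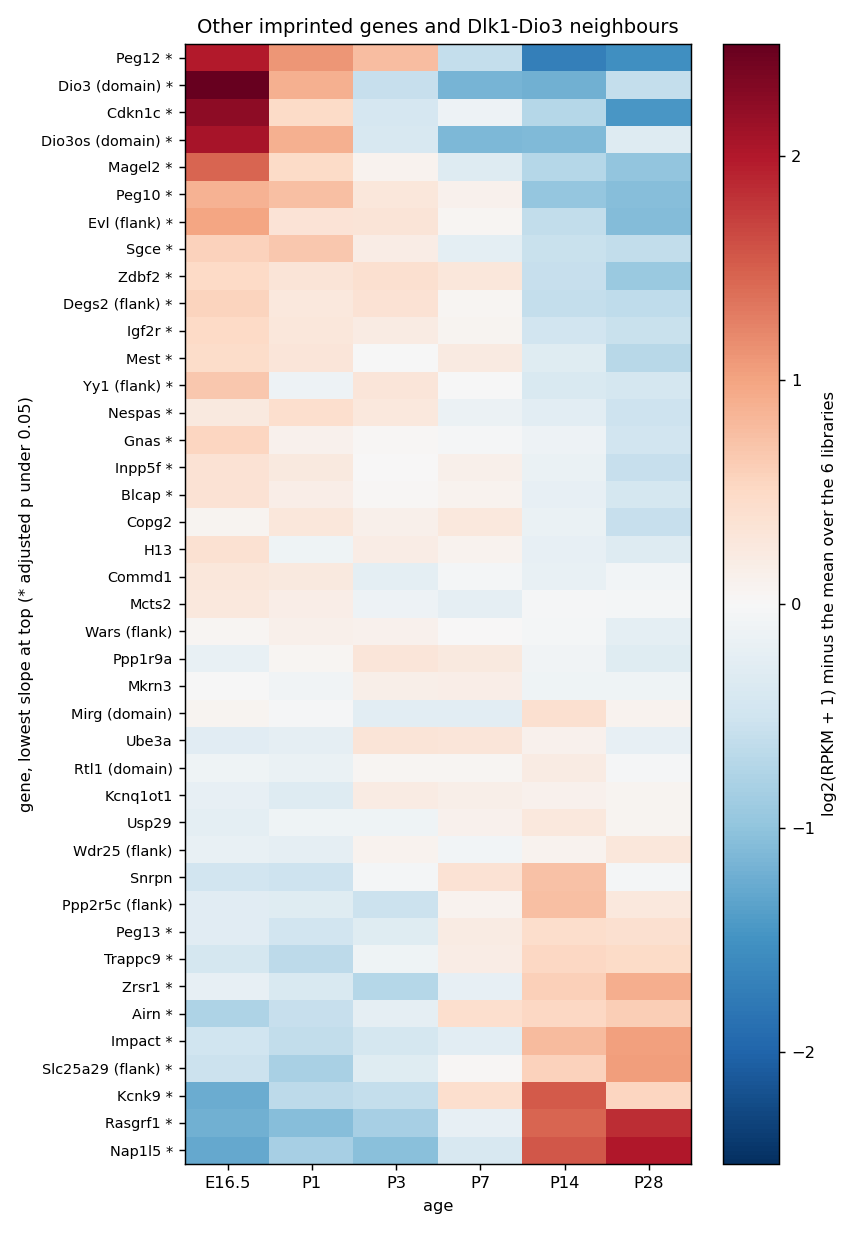
Imprinted genes elsewhere, other Dlk1-Dio3 genes (domain) and neighbours (flank), as log2(RPKM + 1) minus the gene's mean over the 6 libraries (colour), ordered by slope, with an asterisk where the adjusted p was under 0.05. Peg12, Dio3 and Cdkn1c at the top were highest at E16.5, and Nap1l5 and Rasgrf1 at the bottom were highest at P28.

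Several features of the libraries moved with these results. Depth read from the steps of low values was between 12746000 reads at P1 and 28760000 at P14, so that 1 read in a 2 kb gene is worth 0.0174 to 0.0392 RPKM. It was at most 14452000 in E16.5, P1 and P28 and at least 23382000 in P3, P7 and P14. The 2 ways of writing the library titles split the ages in the same manner. Retinal markers identified the tissue: the rod transcription factor gene Nrl, named after its values were seen, rose from 4.45 to 318 RPKM between the first and last age, and the 5 bipolar markers, led by Grm6, summed to 6.11 and 121 RPKM. Of 9 progenitor markers 8 fell, against 29.9% of all tested genes. Fgf15 and Sfrp2 were not called without E16.5 (adjusted p = 0.0944 and 0.119) or in log2 days (0.0646 and 0.070). The sum of the 9 markers, led by Ccnd1, was 1433, 1279, 716, 263, 115 and 126 RPKM by age. The sum fell over the same ages as Plagl1, H19 and Grb10, and its part in their fall was not tested. Of the 5 bipolar and the 3 measured amacrine markers all rose, against 15.2% of all tested genes. The erythroid marker Hba-a1 stood at 91.7 RPKM at E16.5 and between 0.753 and 4.96 later. Lens markers, led by Cryaa, summed to 42.1, 15.8 and 23.8 RPKM at E16.5, P1 and P28 and to between 0.579 and 1.29 at the other ages. This split is also that of the 2 ways of writing the library titles, so age and title form cannot be told apart in it. Ndn and Begain were also high at E16.5, and the part of erythroid and lens cells in their values was not tested. Mesenchymal markers, known from tissues rich in Igf2, were low at every age. The 8 genes summed to between 1.92 and 5.66 RPKM, with Pdgfra the highest on average. The part of mesenchyme in the level of Igf2 was not tested. The 8 vessel markers, led by Kdr, summed to between 25.7 RPKM at P28 and 61.6 at P3, of which Kdr made up 52.6. The other 7 were each highest at P14, and of these Rgs5, a pericyte gene, rose (0.593 RPKM at E16.5 and 22.5 at P14), a call lost without E16.5 (adjusted p = 0.0779) and in log2 days (0.0514).

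Among 39 other genes picked for at least 10 RPKM at E16.5 and at most 1% of that at P14, the median left at P28 was 2.67% of the E16.5 value (quartiles 2.33% and 3.31%). A low P14 value was part of how they were picked, so nothing is read from their being higher at P28. Plagl1 was at 3.12% and H19 at 2.88% of their E16.5 values at P28. At P14 they were at 1.71% and 1.47%, above the limit of 1%, whereas the median of the 39 genes was 0.457%. The 2 genes are thus unlike that set, and no likeness to it is read from the P28 values. Of the 6 genes that fell, Plagl1, H19, Igf2 and Grb10 were higher at P28 than at P14, as were 38.3% of all genes that fell. Whether the P28 library differs from the P14 library in such traces was not tested.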

How the data were processed

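Messenger RNA of whole retina was sequenced from 6 wild-type libraries, 1 per age. Per the labels' protocols, messenger RNA was isolated from Trizol extracts with beads, copied into double-stranded cDNA, fragmented, and prepared for sequencing with an Illumina ChIP kit. The submitters' processing notes name bcl2fastq 2.17.1.14 and the mm9 build. Aligner, counter, annotation and strand were not given in the sources used. The authors deposited RPKM values per gene, per the file headers, with 0 unused columns of sample values. RPKM takes no account of reads drawn by the most abundant transcripts, and its sum over genes was 179379 in the E16.5 library and 133675 in the P28 library. Rescaling shifted the median of all tested genes by up to -0.22 (E16.5) and 0.16 (P28) log2 units.

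The log2(RPKM + 1) scale, on which changes of low genes come out too small, was used for 15272 genes with at least 1 RPKM in some library. Slopes over age order came from limma 3.58.1 in R 4.3.3 (lmFit, eBayes with trend, two-sided, Benjamini-Hochberg over all genes, threshold 0.05, 4 residual degrees of freedom), and curvature from a quadratic term. The slope test was tested on simulated data. These had straight courses and independent noise, so they say nothing of curved courses or of scaling between libraries. For depth, values under 0.3 RPKM were read in genes that have a single GENCODE M21 transcript, of which 69.4% to 73.0% were whole reads within 0.05. Because only part came out whole, no count test was run. Estimated reads use the longest reference transcript and scale with it, and 95% intervals are exact Poisson. No coordinates come from the deposited table. Promoter windows are those of RefSeq on GRCm38.p6, another build than mm9, and were joined by symbol.

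Genes were named by rule: all 10 members, the other domain genes, the 4 to 6 steepest called genes of each list and direction, partner genes, the marker of highest mean in a list, and the 3 nearest profiles (Euclidean distance of centred log2 values). Members and lists were chosen with earlier results of these data known. Snurf and Hymai of the imprinted list and Tfap2a and Tfap2b of the amacrine list had no row matched here.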

Additional observations from a re-analysis of the deposited data

How the results depend on the processing

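The falls of Plagl1, H19, Nnat and Grb10 and the lack of a call for Rian kept direction and call under all 14 alternatives. The slope of Begain turned to 0.14 without E16.5 and lay between -0.23 (without P28) and 0.14 over the left-out libraries. Of the 10 genes, those that fell numbered between 4 and 6 over all settings. Those that rose numbered 0, but 1 (Peg3) with median-of-ratios rescaling, with the title term and without the intensity trend, 2 (Peg3 and Meg3) with a common total without the 50 highest genes, and between 0 and 1 when leaving out a library. Over all genes, 1403 rose with a filter at 5 RPKM and 2668 fell with the common total. Leaving out single libraries gave 1538 (without P14) to 2179 that rose and 2953 (without P14) to 4247 that fell. Of the step counts, 1 of the genes was lower from E16.5 to P1 with a pseudocount of 0.1, and with median-of-ratios rescaling 2 were lower and 1 was higher from P7 to P14. With a limit of 0.5 log2 units, 1 was higher and 5 were lower from E16.5 to P1, 5 lower from P1 to P3, 2 higher from P7 to P14, and 2 higher and 2 lower from P14 to P28. Curvature gave 0 calls among the 10 genes as fitted, with a pseudocount of 0.1 and with median-of-ratios rescaling. The cause of these changes was not tested. No paired analysis was possible because each age has 1 library. Samples of the same age were not compared, and values under about 0.1 RPKM rest on few reads.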
